A study of Mus musculus with 24 samples.

Results

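The 55 genes described here are the mouse chemokines and chemokine receptors measured in lung. They were taken by gene symbol (Ccl, Cxcl, Ccr or Cxcr followed by a number, plus Cx3cl1, Cx3cr1, Xcl1 and Xcr1) from 19505 genes with a single symbol, with 1 probe set per gene. Of the 55 genes, 38 encode ligands and 17 encode receptors. The ligands were 23 CC chemokines (Ccl1 to Ccl9, Ccl11, Ccl12, Ccl17, Ccl19, Ccl20, Ccl21a, Ccl21b, Ccl21c, Ccl22, Ccl24 to Ccl26, Ccl27a and Ccl28), 13 CXC chemokines (Cxcl1, Cxcl2, Cxcl3, Cxcl5 and Cxcl9 to Cxcl17), Cx3cl1 and Xcl1. The receptors were 9 for CC chemokines (Ccr1 to Ccr4 and Ccr6 to Ccr10), 6 for CXC chemokines (Cxcr1 to Cxcr6), Cx3cr1 and Xcr1.

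The series crossed genotype with sildenafil, a phosphodiesterase 5 inhibitor, in a mouse model of Marfan syndrome, a heritable disease of connective tissue. Whole-lung RNA was measured on Affymetrix arrays, 1 array per sample, in 5 Marfan sildenafil, 5 Marfan vehicle, 4 wild-type sildenafil and 6 wild-type vehicle samples. The Marfan sildenafil mice carried the disease allele and drank sildenafil from 6 weeks of age, the Marfan vehicle mice carried it and drank vehicle, the wild-type sildenafil mice lacked it and drank sildenafil, and the wild-type vehicle mice lacked it and drank vehicle. These groups come from the sample titles, and the treatment field of the labels goes against them, since it names sildenafil for the vehicle samples too, so each comparison of sildenafil with vehicle rests on the titles. All were killed at 6 months of age, and the labels give neither the allele, the sex nor the litter, nor whether each array is a separate animal, so the p-values below measure the spread between arrays.

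Chemokines are small secreted proteins that bind heparan sulphate on cell surfaces and draw leukocytes along a gradient through G protein-coupled receptors. Inflammatory chemokines such as Cxcl2 and Ccl2 are induced by cytokines and microbial products and recruit neutrophils and monocytes, whereas homeostatic ones such as Cxcl12, Ccl21 and Cxcl13 place lymphocytes and progenitor cells in tissues. In lung they are made by alveolar macrophages, epithelium, endothelium, fibroblasts and dendritic cells, and the receptors are carried largely by the leukocytes that respond.

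Promoter sequence is shown for 4 ligands on which the results below turn, as the 250 bases before the annotated start site in RefSeq, build GRCm38.p6, written 5′ to 3′ on the strand of the gene. Of the 55 genes, 54 were matched in RefSeq and 40 had a window. Capitals mark every match, on either strand, to 1 of 3 motifs: GGG, any 3 bases and TTCC (the kappaB motif, bound by NF-kappaB), GAAA, any 2 bases and GAAA (an interferon response motif), or TTC, any 4 bases and GAA (a STAT6 motif). Cxcl2 (chr5:90903649-90903898, plus strand) and Cxcl10 (chr5:92348890-92349139, minus strand) are shown because both hold kappaB matches and their values differed on 1 array, Ccl17 (chr8:94810203-94810452, plus strand) because it was far above all other values on another array, and Cxcl12 (chr6:117168285-117168534, plus strand) because it had the smallest p of the 55 genes between genotypes.
Cxcl2: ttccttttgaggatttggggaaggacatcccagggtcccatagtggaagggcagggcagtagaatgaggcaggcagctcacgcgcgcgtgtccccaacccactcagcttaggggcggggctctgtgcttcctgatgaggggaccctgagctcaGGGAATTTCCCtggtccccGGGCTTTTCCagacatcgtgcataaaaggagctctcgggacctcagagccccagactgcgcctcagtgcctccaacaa
Cxcl10: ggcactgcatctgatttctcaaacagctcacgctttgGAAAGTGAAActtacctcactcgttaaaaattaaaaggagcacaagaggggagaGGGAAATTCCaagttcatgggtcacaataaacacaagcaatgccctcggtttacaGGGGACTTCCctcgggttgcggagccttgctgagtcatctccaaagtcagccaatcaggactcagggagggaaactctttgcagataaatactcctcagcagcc
Ccl17: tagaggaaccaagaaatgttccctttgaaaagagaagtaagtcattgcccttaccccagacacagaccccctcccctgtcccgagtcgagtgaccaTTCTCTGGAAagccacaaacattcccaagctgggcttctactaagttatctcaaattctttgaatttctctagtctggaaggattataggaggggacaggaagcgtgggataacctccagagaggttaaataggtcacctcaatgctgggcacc
Cxcl12: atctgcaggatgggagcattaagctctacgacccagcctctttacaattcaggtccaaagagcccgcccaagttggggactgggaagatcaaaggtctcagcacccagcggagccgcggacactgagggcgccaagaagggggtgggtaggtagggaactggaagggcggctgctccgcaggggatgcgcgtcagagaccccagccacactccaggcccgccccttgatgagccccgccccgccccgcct
In the Cxcl2 window the 3 kappaB matches began at -97, -96 and -78 from the start site, so the first pair overlap. Cxcl10 held 2 kappaB matches and 1 interferon response match, Ccl17 held 1 STAT6 match, and none of the 3 motifs was found in the Cxcl12 window. Over all RefSeq windows of the same length, 4.65% held the kappaB motif, 2.98% the interferon response motif and 5.85% the STAT6 motif. Over the 44 windows of the 40 genes, 9 (20.5%) held the kappaB motif, those of Ccl1, Ccl9, Ccl20, Ccr3, Ccr6, Cxcl1, Cxcl2, Cxcl3 and Cxcl10. The interferon response motif was in 3 windows (Ccl19, Cxcl10 and Cxcl14) and the STAT6 motif in that of Ccl17. A match is a description of the letters in the window and does not show binding.

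All values are log2 expression after quantile normalization, and a difference of 1 on this scale is a doubling of the signal. Values are compared only within a gene. Mean values of 30 of the 55 genes lay in the dimmer 50% of all genes, below a log2 value of 6.08, and these are called dim below. They were Ccl1, Ccl2, Ccl4, Ccl7, Ccl8, Ccl12, Ccl19, Ccl20, Ccl24, Ccl26, Ccl28, Cxcl1, Cxcl2, Cxcl3, Cxcl5, Cxcl9, Cxcl10, Cxcl11, Xcl1, Ccr3, Ccr4, Ccr6, Ccr8, Ccr9, Ccr10, Cx3cr1, Cxcr1, Cxcr3, Cxcr6 and Xcr1. The array's background probe sets had medians between 2.56 and 3.28, and how far each dim gene stands above background was not tested. The probe sets of Ccl21b and Ccl21c gave the same value on every array, and Ccl21a differed from them by at most 0.37, so the Ccl21 copies, which encode near-identical proteins that draw T cells and dendritic cells through Ccr7, cannot be told apart.

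The lung label was borne out by the markers, since the mean of 6 lung epithelial markers lay between 12.13 and 12.47 on every array. Marfan sildenafil array 9 stood apart from the others. On it the 6 endothelial and the 6 cardiac muscle markers were all at their lowest, 7 of 8 monocyte-derived macrophage markers and 5 of 9 alveolar macrophage markers were at their highest, and 18 of the 55 genes (32.7%) were more than 1 above their median on the other 19 arrays, against 3.64% of all genes. Marfan vehicle array 21, singled out after its values were seen, had 7 such genes (12.7%), against 0.461% of all genes. In bulk lung, a difference in the number of cells of a type and a difference in RNA per cell cannot be told apart. Counts over the 55 genes are given with and without array 9.

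**Figure D1:**
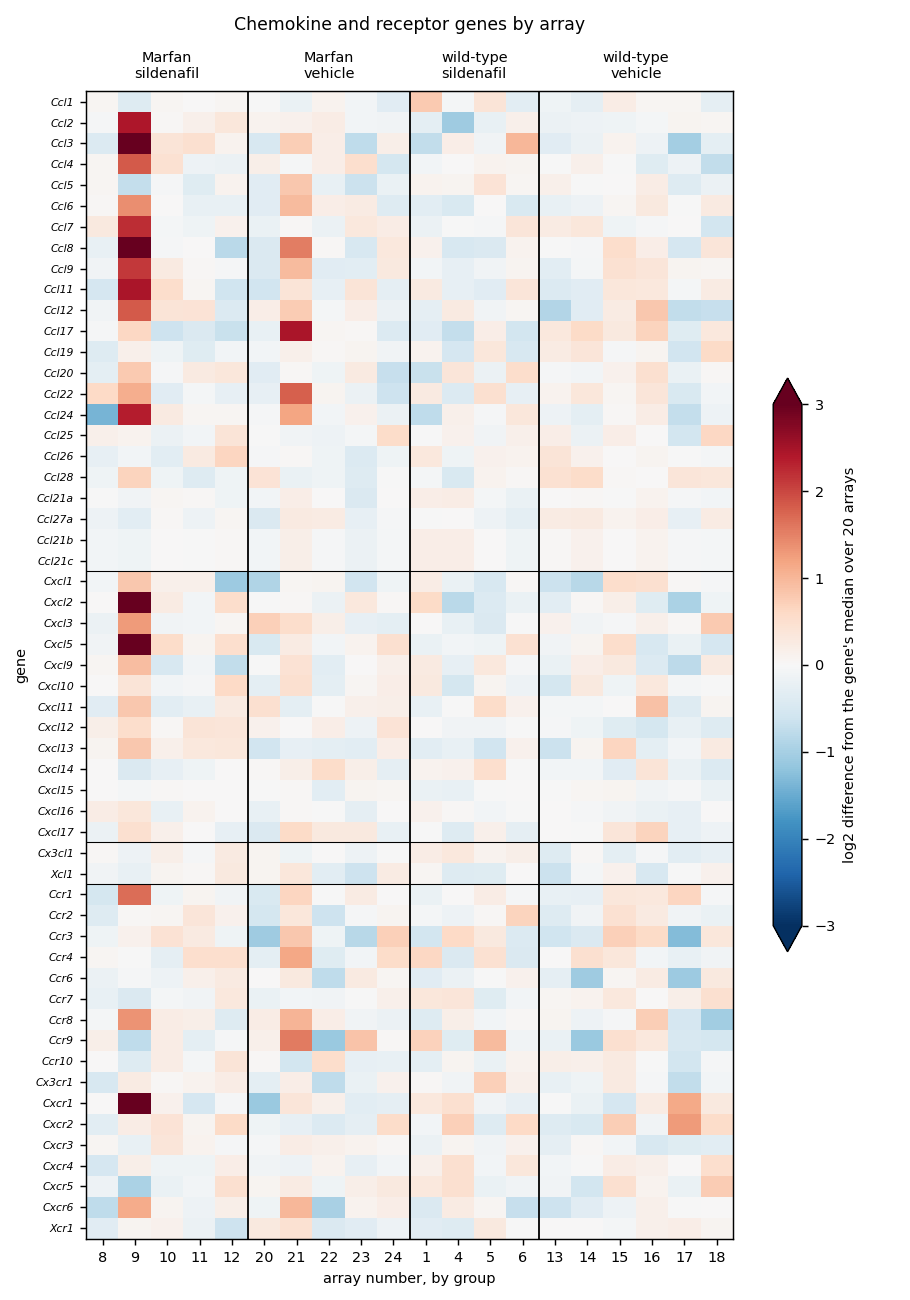
Log2 difference of each of the 55 genes (rows, grouped into CC ligands, CXC ligands, other ligands and receptors) from its median over 20 arrays (columns, by group). The column of Marfan sildenafil array 9 is red where genes stand high, with 24 of the 55 at their highest value there, against 10 on Marfan vehicle array 21; the scale ends at 3, and Cxcr1, Cxcl5, Cxcl2, Ccl3 and Ccl8 lie beyond it on array 9.

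None of the 55 genes passed an adjusted p of 0.05 in any of the 7 comparisons, by limma with Benjamini-Hochberg adjustment over all 19505 genes, and none of the 19505 did (0%). Without array 9 none of the 55 passed either, while 2 of all genes (0.0103%) passed for Marfan vehicle against wild-type vehicle and 74 (0.379%) for sildenafil averaged over genotypes. At an unadjusted p under 0.05, Marfan vehicle against wild-type vehicle gave 2 of the 55 genes (3.64%), against 6.26% of all genes. Marfan sildenafil against Marfan vehicle gave 1 (1.82%), against 6.71% of all genes, and wild-type sildenafil against wild-type vehicle gave 1 (1.82%), against 9.1%. Marfan sildenafil against wild-type sildenafil gave 6 (10.9%), against 3.89% of all genes. The interaction, which asks whether the sildenafil difference depends on genotype, gave 2 (3.64%), against 4.47%. Sildenafil averaged over genotypes gave 4 (7.27%), against 10.9%, and Marfan averaged over treatments gave 5 (9.09%), against 5.35%.

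Without array 9 those counts were 3 (against 7.8% of all genes), 2 (6.86%), 3 (11.2%), 4 (3.22%), 2 (4.35%), 4 (13.1%) and 5 (5.14%), in the same order. Marfan sildenafil was higher than Marfan vehicle for 39 of the 55 genes with a median difference of 0.07, and for 31 genes with a median of 0.03 without that array. Against wild-type sildenafil it was higher for 36 genes with a median difference of 0.11, and for 27 genes with a median of -0.01 without array 9. The median over all genes was -0.01 or nearer 0 in each of the 7 comparisons. In the comparison with wild-type sildenafil, 16 of 23 CC ligands were higher in Marfan sildenafil with array 9 and 10 without it, and likewise 10 and 9 of 13 CXC ligands and 9 and 7 of 17 receptors. In 2 comparisons 1 of the 55 genes had groups that did not overlap, Cx3cl1 and Cxcl12, both higher. Such genes made up 1.42% of all genes higher and 1.3% lower for wild-type sildenafil against wild-type vehicle, and 0.677% higher and 0.749% lower for Marfan sildenafil against wild-type sildenafil. None of the 55 did so for Marfan vehicle against wild-type vehicle (0.261% higher and 0.267% lower) or for Marfan sildenafil against Marfan vehicle (0.385% and 0.492%).

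**Figure D2:**
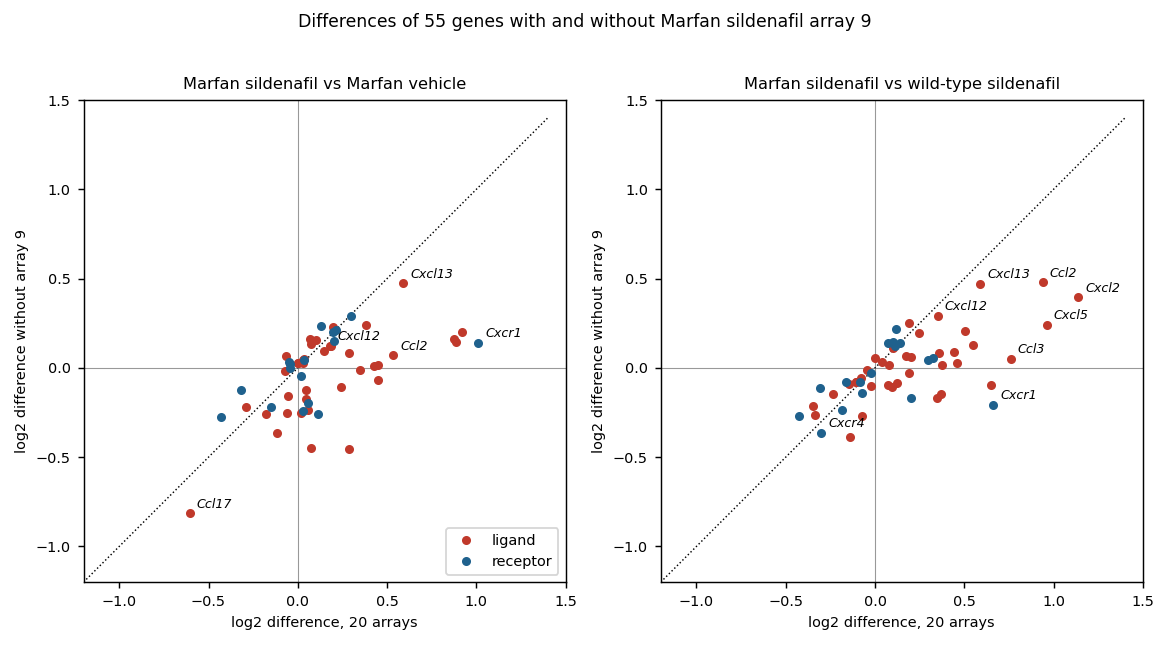
Log2 difference of each of the 55 genes from all 20 arrays (horizontal axis) and without Marfan sildenafil array 9 (vertical axis), for Marfan sildenafil against Marfan vehicle (left) and against wild-type sildenafil (right), with ligands in red and receptors in blue. Genes on the dotted line have equal values in both fits; Cxcr1, Cxcl2, Cxcl5 and Ccl3 lie far below it, while Cxcl12 and Cxcl13 stay near it.

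Cxcl12, the ligand that holds Cxcr4-bearing progenitors and lymphocytes in tissues, was higher in Marfan than in wild-type lungs under both treatments. Its values were 8.42, 8.77, 8.28, 8.63 and 8.61 on the Marfan sildenafil arrays and 8.37, 8.26, 8.44, 8.08 and 8.65 on the Marfan vehicle arrays. They were 8.25, 8.14, 8.14 and 8.23 on the wild-type sildenafil arrays and between 7.73 and 8.22 (median 7.95) on the 6 wild-type vehicle arrays. Every Marfan sildenafil value was above every wild-type sildenafil value, an arrangement shared by 0.677% of all genes in this direction, while 1 of 5 Marfan vehicle values lay below the highest wild-type vehicle value. Averaged over treatments the log2 difference was 0.37 ± 0.08 (SE, limma, unadjusted p = 0.000132, adjusted p = 0.428), with a 95% interval of 0.20 to 0.54. It was 0.39 ± 0.11 between the vehicle groups (adjusted p = 0.726) and 0.35 ± 0.12 between the sildenafil groups (adjusted p = 1), and the averaged value without array 9 was 0.34. The deposited array medians of the vehicle groups overlapped little, at 5.80 to 6.13 for Marfan and 5.32 to 5.83 for wild-type vehicle. Genotype and array brightness are therefore hard to tell apart between the vehicle groups, for Cxcl12 or for any other gene or marker list compared there. Cxcl12 was also higher under sildenafil averaged over genotypes, by 0.20 ± 0.08 (adjusted p = 0.357), and its interaction was -0.04 ± 0.16, between -0.11 and 0.03 leaving out 1 array. All 4 mesothelial markers measured were higher in Marfan lungs as well, with a median difference of 0.43 averaged over treatments and 3 of 4 at an unadjusted p under 0.05, against 5.35% of all genes. Their summed log2 level ranged from 24.05 to 27.71 on the Marfan sildenafil arrays and from 24.65 to 28.10 on the Marfan vehicle arrays, against 23.59 to 25.95 on the wild-type sildenafil arrays and 22.59 to 26.77 on the wild-type vehicle arrays. Mesothelium was not alone in this. All 8 monocyte-derived macrophage, 6 alveolar type 2 and 4 plasma cell markers measured were also higher averaged over treatments. All 6 B cell and 4 nonclassical monocyte markers were lower. Of 5 fibroblast markers 3 were higher and 2 lower, with a median of 0.04. The part of these cells in the Cxcl12 difference was not tested.

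Cxcr4, the signalling receptor of Cxcl12, was lower in Marfan lungs. Its values were 8.66, 9.34, 9.04, 9.03 and 9.36 on the Marfan sildenafil arrays and 9.07, 9.01, 9.26, 8.91 and 9.08 on the Marfan vehicle arrays. On the wild-type sildenafil arrays they were 9.31, 9.65, 9.07 and 9.51, and the 6 wild-type vehicle arrays lay between 9.09 and 9.67 (median 9.24). The groups overlapped under both treatments, with Marfan sildenafil array 8 the lowest of all 20. Averaged over treatments the difference was -0.27 ± 0.09 (limma, unadjusted p = 0.00901, adjusted p = 0.918) and -0.30 without array 9. Between the vehicle groups it was -0.23 ± 0.13, and this sign turned, to 0.02, in the deposited values without normalization between arrays. There the median of all genes was shifted upward by more than this 0.02.

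Ackr3, an atypical receptor outside the 55 genes that takes up Cxcl12 without signalling through G proteins, was 7.97, 7.21, 8.00, 7.78 and 7.88 on the Marfan sildenafil arrays and 8.40, 8.34, 8.25, 8.29 and 7.90 on the Marfan vehicle arrays. It was 8.05, 8.26, 8.79 and 8.07 on the wild-type sildenafil arrays and between 8.06 and 8.42 (median 8.18) on the wild-type vehicle arrays. The lowest value was that of array 9, and all 5 Marfan sildenafil values lay below all 4 wild-type sildenafil values, as for 0.749% of all genes in this direction, while 1 Marfan vehicle value, on array 24, lay within the Marfan sildenafil range. The difference was -0.47 ± 0.15 for Marfan sildenafil against Marfan vehicle (adjusted p = 0.677) and -0.53 ± 0.16 against wild-type sildenafil (adjusted p = 1), or -0.33 and -0.39 without array 9. Of the 5 atypical receptors listed (Ackr1 to Ackr4 and Ccrl2), none passed the adjusted threshold in any comparison.

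Cx3cl1, a chemokine tethered to the surface of endothelial and epithelial cells, was higher under sildenafil in wild-type lungs. Its values were 7.64, 7.72, 7.52 and 7.58 on the wild-type sildenafil arrays and between 7.02 and 7.44 (median 7.14) on the wild-type vehicle arrays. All 4 wild-type sildenafil values lay above all 6 wild-type vehicle values, as for 1.42% of all genes in this direction. The deposited array medians of these groups did not overlap either, at 5.87 to 6.19 against 5.32 to 5.83. Sildenafil and array brightness therefore cannot be told apart in wild-type lungs, for Cx3cl1 or for any other gene or marker list compared there. In Marfan lungs, which overlapped, the values were 7.45, 7.25, 7.59, 7.38 and 7.68 under sildenafil and 7.49, 7.27, 7.43, 7.25 and 7.39 under vehicle. The difference was 0.42 ± 0.11 in wild-type lungs (limma, unadjusted p = 0.00079, adjusted p = 0.335) and 0.10 ± 0.11 in Marfan lungs (adjusted p = 0.904). Over the 29 alternatives the wild-type difference lay between 0.38 and 0.78, with an adjusted p by limma between 0.0629 and 0.784. They include brightness as a covariate, which cannot separate brightness from sildenafil where the array medians do not overlap. The interaction was -0.31 ± 0.15 (unadjusted p = 0.0507, adjusted p = 0.984), so a difference between genotypes in the sildenafil response was not shown. Averaged over genotypes the difference was 0.26 ± 0.08 (adjusted p = 0.187), and 0.29 without array 9 (adjusted p = 0.0794).

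Endothelial markers moved with Cx3cl1 in wild-type lungs. All 6 of those measured were higher in wild-type sildenafil than in wild-type vehicle lungs, with a median difference of 0.34 and 3 of 6 at an unadjusted p under 0.05, against 9.1% of all genes. Their summed log2 level ranged between 60.86 and 61.85 on the wild-type sildenafil arrays and between 58.82 and 60.99 on the wild-type vehicle arrays, and their mean log2 level was 8.93 or more on every array. Their part in the Cx3cl1 difference was not tested. Cx3cr1, the receptor of Cx3cl1 on monocytes and macrophages, is dim, and its values were 5.74, 5.60, 6.43 and 5.87 on the wild-type sildenafil arrays and between 4.97 and 5.98 (median 5.60) on the wild-type vehicle arrays. Those groups overlapped, and the difference was 0.36 ± 0.21 (adjusted p = 0.631). The 4 nonclassical monocyte markers measured, which include no member of the 55, were all higher in the same comparison, with a median difference of 0.44 and 2 of 4 at an unadjusted p under 0.05, against 9.1% of all genes. Their summed log2 level ranged from 28.08 to 30.33 on the wild-type sildenafil arrays and from 27.07 to 28.40 on the wild-type vehicle arrays, and their part in the Cx3cr1 difference was not tested. In Marfan lungs Cx3cr1 was 5.22, 5.94, 5.74, 5.80 and 5.92 under sildenafil and 5.41, 5.90, 4.96, 5.51 and 5.84 under vehicle, with array 8 the lowest of the sildenafil group.

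**Figure D3:**
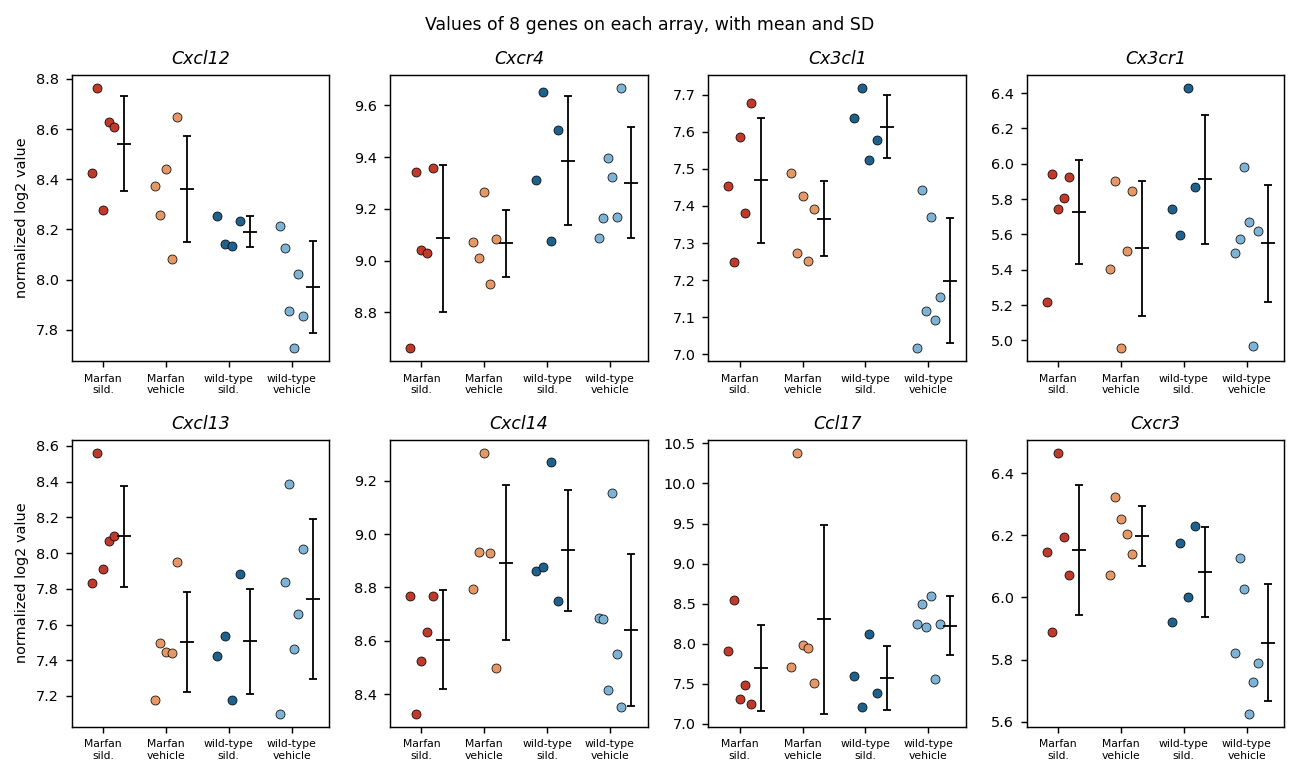
Normalized log2 values of 8 genes (vertical axes) on each array of the Marfan sildenafil, Marfan vehicle, wild-type sildenafil and wild-type vehicle groups, with the group mean and SD to the right of the points; the axes do not start at 0. All Cxcl12 points of Marfan sildenafil lie above those of wild-type sildenafil, all Cx3cl1 points of wild-type sildenafil lie above those of wild-type vehicle, and Marfan vehicle overlaps wild-type vehicle for both; the single high Ccl17 point is Marfan vehicle array 21, at 10.38.

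Cxcl13 and Cxcl14 had the smallest p among the 55 genes for the interaction, with opposite signs. Cxcl13, which draws B cells into follicles through Cxcr5, had values of 7.83, 8.56, 7.91, 8.07 and 8.10 on the Marfan sildenafil arrays and 7.18, 7.50, 7.45, 7.44 and 7.95 on the Marfan vehicle arrays. It had 7.43, 7.54, 7.18 and 7.88 on the wild-type sildenafil arrays and between 7.10 and 8.39 (median 7.75) on the wild-type vehicle arrays. In Marfan lungs 1 vehicle array, 24, overlapped the sildenafil range, and in wild-type lungs the treatments overlapped widely. The sildenafil difference was 0.59 ± 0.19 in Marfan lungs (limma, adjusted p = 0.677) and -0.24 ± 0.20 in wild-type lungs (adjusted p = 0.759). The interaction was 0.83 ± 0.27 (unadjusted p = 0.00549, adjusted p = 0.984), or 0.71 without array 9. Marfan sildenafil exceeded wild-type sildenafil by 0.59 ± 0.20 (0.47 without array 9), with 4 of 5 Marfan values above the highest wild-type one.

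Cxcr5, the receptor of Cxcl13 on B cells, differed by -0.32 ± 0.22 between Marfan sildenafil and Marfan vehicle lungs (adjusted p = 0.82), or -0.12 without array 9. Its values were 7.26, 6.45, 7.21, 7.32 and 7.88 on the Marfan sildenafil arrays and 7.49, 7.66, 7.27, 7.58 and 7.70 on the Marfan vehicle arrays, with array 9 the lowest of all. The wild-type sildenafil values were 7.72, 7.89, 7.21 and 7.30, and the wild-type vehicle values lay between 6.85 and 8.17 (median 7.40). Of 6 B cell markers measured, 3 were higher and 3 lower in Marfan sildenafil than in Marfan vehicle lungs, with a median difference of -0.05, which turned to 0.10 without array 9.

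Cxcl14, a homeostatic chemokine of epithelia and fibroblasts, had values of 8.77, 8.33, 8.52, 8.63 and 8.77 on the Marfan sildenafil arrays and 8.80, 8.93, 9.30, 8.93 and 8.50 on the Marfan vehicle arrays. It had 8.86, 8.88, 9.27 and 8.75 on the wild-type sildenafil arrays and between 8.35 and 9.15 (median 8.62) on the wild-type vehicle arrays. The groups overlapped within both genotypes. The sildenafil difference was -0.29 ± 0.15 in Marfan lungs (adjusted p = 0.753) and 0.30 ± 0.15 in wild-type lungs (adjusted p = 0.554), with an interaction of -0.59 ± 0.21 (unadjusted p = 0.0096, adjusted p = 0.984).

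Ccl17 and Ccl22, which dendritic cells and macrophages make and which draw T helper 2 and regulatory T cells through Ccr4, shared their highest array. Ccl17 values were 7.90, 8.55, 7.31, 7.49 and 7.25 on the Marfan sildenafil arrays and 7.71, 10.38, 7.98, 7.95 and 7.50 on the Marfan vehicle arrays. The wild-type sildenafil values were 7.59, 7.20, 8.12 and 7.38, and the wild-type vehicle values lay between 7.56 and 8.60 (median 8.24). Array 21 of the Marfan vehicle group was 2.48 above the median of the others for Ccl17 and 1.85 above it for Ccl22, and the groups overlapped in each comparison. Averaged over genotypes, Ccl17 was lower under sildenafil, with a sildenafil minus vehicle difference of -0.63 ± 0.26 (limma, unadjusted p = 0.0238, adjusted p = 0.366), or -0.73 without array 9. The difference was -0.61 ± 0.37 in Marfan and -0.65 ± 0.37 in wild-type lungs. Without array 21 it was -0.09 in Marfan lungs and -0.37 averaged over genotypes.

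Ccl22 was 8.23, 8.72, 7.29, 7.57 and 7.39 on the Marfan sildenafil arrays and 7.39, 9.41, 7.71, 7.46 and 7.00 on the Marfan vehicle arrays, a difference of 0.05 ± 0.32. This difference was -0.17 without array 9 and 0.45 without array 21. On the wild-type sildenafil arrays it was 7.89, 7.22, 8.11 and 7.38, and on the wild-type vehicle arrays between 7.18 and 8.00 (median 7.72), a difference of -0.04 ± 0.33, between -0.20 and 0.10 leaving out 1 array. The receptor Ccr4 is dim and differed by -0.05 ± 0.27 in Marfan and -0.02 ± 0.27 in wild-type lungs, and both signs turned leaving out 1 array. The sildenafil differences of Ccl17 and Ccl22 were not tested against each other.

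Cxcr3, the receptor for Cxcl9, Cxcl10 and Cxcl11 on activated T and NK cells, is dim. Its values were 6.15, 5.89, 6.46, 6.19 and 6.07 on the Marfan sildenafil arrays and 6.07, 6.32, 6.25, 6.20 and 6.14 on the Marfan vehicle arrays. They were 5.92, 6.17, 6.00 and 6.23 on the wild-type sildenafil arrays and between 5.63 and 6.13 (median 5.81) on the wild-type vehicle arrays. Marfan vehicle lungs overlapped the upper end of wild-type vehicle lungs, and the difference was 0.34 ± 0.13 (unadjusted p = 0.0111, adjusted p = 0.789). Its interferon-induced ligands differed by 0.16 ± 0.24 for Cxcl9, 0.05 ± 0.19 for Cxcl10 and 0.03 ± 0.22 for Cxcl11 in the same comparison, and the signs of Cxcl10 and Cxcl11 turned leaving out 1 array. Of 7 T cell markers, 2 were higher and 5 lower in Marfan vehicle lungs, with a median difference of -0.04.

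Ccr7, which brings T cells and mature dendritic cells to lymph nodes, was 8.15, 7.94, 8.32, 8.27 and 8.68 on the Marfan sildenafil arrays and 8.17, 8.29, 8.27, 8.36 and 8.53 on the Marfan vehicle arrays. It was 8.70, 8.74, 8.00 and 8.29 on the wild-type sildenafil arrays and between 8.39 and 8.86 (median 8.51) on the wild-type vehicle arrays. Averaged over treatments the Marfan minus wild-type difference was -0.20 ± 0.10 (adjusted p = 0.918). Between the vehicle groups the sign turned to 0.04 in the deposited values, below the upward shift of the median of all genes there. Its ligand Ccl19 had a sildenafil difference of -0.21 ± 0.14 averaged over genotypes. Ccl19 was 4.23, 4.77, 4.48, 4.23 and 4.52 on the Marfan sildenafil arrays and 4.51, 4.77, 4.63, 4.69 and 4.50 on the Marfan vehicle arrays, and 4.70, 4.09, 4.95 and 4.13 on the wild-type sildenafil arrays and between 4.03 and 5.18 (median 4.76) on the wild-type vehicle arrays. Ccl21a ranged over 0.67 across the 20 arrays and Ccl21b and Ccl21c over 0.39, and Ccl21a differed by -0.06 ± 0.10 between Marfan vehicle and wild-type vehicle lungs, or 0.03 without Marfan vehicle array 23.

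Among the epithelial and mucosal ligands, Ccl28, which binds Ccr3 and Ccr10, is dim and differed by -0.38 ± 0.20 between wild-type sildenafil and wild-type vehicle lungs (adjusted p = 0.571). Its values were 4.66, 5.47, 4.67, 4.42 and 4.66 on the Marfan sildenafil arrays and 5.21, 4.60, 4.67, 4.40 and 4.78 on the Marfan vehicle arrays. They were 4.74, 4.33, 4.90 and 4.84 on the wild-type sildenafil arrays and between 4.81 and 5.33 (median 5.15) on the wild-type vehicle arrays. The wild-type groups overlapped in 2 of the 4 sildenafil arrays, those numbered 5 and 6, and the difference of Marfan vehicle from wild-type vehicle was -0.36 ± 0.18. Ccl27a, another Ccr10 ligand, was 7.09, 6.94, 7.29, 7.11 and 7.31 on the Marfan sildenafil arrays and 6.82, 7.53, 7.50, 7.01 and 7.22 on the Marfan vehicle arrays. It was 7.24, 7.26, 7.11 and 6.97 on the wild-type sildenafil arrays and between 7.02 and 7.53 (median 7.47) on the wild-type vehicle arrays. The sildenafil difference in wild-type lungs was -0.25 ± 0.14 and turned to 0.13 in the deposited values, below the upward shift of the median of all genes there.

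Cxcl16, the ligand of Cxcr6 on T and NKT cells, was higher under sildenafil averaged over genotypes by 0.15 ± 0.07 (unadjusted p = 0.0418, adjusted p = 0.436), or 0.12 without array 9. Its values were 9.81, 9.95, 9.38, 9.71 and 9.62 on the Marfan sildenafil arrays and 9.36, 9.63, 9.59, 9.34 and 9.61 on the Marfan vehicle arrays. They were 9.72, 9.64, 9.53 and 9.58 on the wild-type sildenafil arrays and between 9.34 and 9.61 (median 9.53) on the wild-type vehicle arrays, with overlap in both genotypes. Cxcl15, a chemokine of lung epithelium known in the mouse, lay between 11.98 and 12.39 on all arrays, and its differences were within 0.10 of 0 in all 7 comparisons. Ccl25, a ligand known for homing to gut and thymus, had an interaction of 0.05 ± 0.25 (-0.07 to 0.17 leaving out 1 array), and its receptor Ccr9, which is dim, one of -0.98 ± 0.53 (adjusted p = 0.984). Ccr9 was 5.20, 4.26, 5.25, 4.73 and 4.99 on the Marfan sildenafil arrays, 5.18, 6.58, 3.91, 5.88 and 5.05 on the Marfan vehicle arrays and 5.71, 4.66, 5.97 and 4.91 on the wild-type sildenafil arrays, with wild-type vehicle between 3.91 and 5.50 (median 4.68).

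Array 9 set apart the receptors Cxcr1, Ccr1, Ccr8 (1.38 above the median of the others) and Cxcr6 (1.12), but not Ccr2, Cxcr2 or Ccr3. It also set apart many inflammatory ligands. The neutrophil chemokines Cxcl5 and Cxcl2, both dim on the other arrays, showed this most among the ligands. Cxcl5 was 3.42, 7.38, 4.07, 3.61 and 4.03 on the Marfan sildenafil arrays, with the value of array 9 the second listed, and 3.07, 3.77, 3.45, 3.62 and 4.01 on the Marfan vehicle arrays. Cxcl2 was 3.45, 7.33, 3.69, 3.34 and 3.96 on the Marfan sildenafil arrays and 3.41, 3.47, 3.25, 3.75 and 3.46 on the Marfan vehicle arrays. On the wild-type sildenafil and wild-type vehicle arrays Cxcl5 reached at most 4.05 and Cxcl2 at most 4.01. The differences of Marfan sildenafil from wild-type sildenafil were 0.96 ± 0.49 for Cxcl5 and 1.14 ± 0.51 for Cxcl2 (limma, adjusted p = 1 for both), and 0.24 and 0.40 without array 9. Of the other ligands of the neutrophil receptor Cxcr2, Cxcl3 was 1.29 and Cxcl1 0.84 above the median of the other 19 arrays on array 9.

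Cxcr1 was 4.24 above the median of the other 19 arrays on array 9, the farthest of the 55 genes. Its values were 4.89, 9.13, 5.03, 4.39 and 4.86 on the Marfan sildenafil arrays and 3.78, 5.25, 5.04, 4.58 and 4.63 on the Marfan vehicle arrays. It had 5.21, 5.38, 4.78 and 4.64 on the wild-type sildenafil arrays and between 4.39 and 6.03 (median 5.01) on the wild-type vehicle arrays. Its neighbour Cxcr2, which also marks neutrophils, was 0.29 above the median of the others on array 9 and highest on wild-type vehicle array 17, with 6.25, 6.79, 6.99, 6.64 and 7.13 on the Marfan sildenafil arrays and 6.44, 6.31, 6.15, 6.31 and 7.11 on the Marfan vehicle arrays. On the wild-type sildenafil arrays Cxcr2 was 6.50, 7.29, 6.18 and 7.16, and on the wild-type vehicle arrays it lay between 6.11 and 7.84 (median 6.79). The 10 neutrophil markers were split on array 9, with 4 at their highest, 3 more than 1 above the median of the others and 2 at their lowest. Their median distance was 0.07, with S100a8 at -0.06, S100a9 at -0.68 and Cd177 at 2.83. Cxcr1 differed by 1.01 ± 0.56 between Marfan sildenafil and Marfan vehicle (adjusted p = 0.769), and by 0.14 without array 9.

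The monocyte chemokine Ccl2, a Ccr2 ligand and dim here, was 5.41, 7.88, 5.49, 5.61 and 5.79 on the Marfan sildenafil arrays and 5.56, 5.58, 5.66, 5.37 and 5.34 on the Marfan vehicle arrays. It was 5.16, 4.40, 5.22 and 5.61 on the wild-type sildenafil arrays and between 5.28 and 5.54 (median 5.35) on the wild-type vehicle arrays. Array 9 was 2.46 above the median of the others, wild-type sildenafil array 4 was the lowest of all 20, and the Marfan and wild-type sildenafil groups overlapped by the value of wild-type sildenafil array 6. The difference of Marfan sildenafil from wild-type sildenafil was 0.94 ± 0.33 (unadjusted p = 0.00901, adjusted p = 1) and 0.48 without array 9. Ccl7 and Ccl12, further Ccr2 ligands, were 2.24 and 1.89 above the median of the others on array 9, while Ccr2 itself was 0.05 above it. Ccl7 differed by 0.46 ± 0.32 and Ccl12 by 0.44 ± 0.35 between Marfan sildenafil and wild-type sildenafil, and by 0.02 and 0.09 without array 9.

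Ccl3 and Ccl4, macrophage chemokines that bind Ccr1 or related receptors, were 3.78 and 1.86 above the median of the others on array 9. Ccl3 was 6.13, 10.21, 6.91, 7.02 and 6.64 on the Marfan sildenafil arrays and 6.05, 7.27, 6.73, 5.78 and 6.72 on the Marfan vehicle arrays. It was 5.79, 6.74, 6.43 and 7.52 on the wild-type sildenafil arrays and between 5.53 and 6.65 (median 6.30) on the wild-type vehicle arrays, so 1 array lay far outside and the remaining ones overlapped. The difference of Marfan sildenafil from Marfan vehicle was 0.87 ± 0.49 (adjusted p = 0.773), and 0.16 without array 9. Ccl6 and Ccl9, which are known in rodents and bind Ccr1, were 1.39 and 2.14 above the median of the others, and Ccr1 was 1.68 above it. Ccl9 was 8.65, 10.88, 9.03, 8.78 and 8.73 on the Marfan sildenafil arrays and 8.33, 9.70, 8.42, 8.45 and 9.05 on the Marfan vehicle arrays, 8.69, 8.50, 8.64 and 8.83 on the wild-type sildenafil arrays and between 8.44 and 9.21 (median 8.84) on the wild-type vehicle arrays. On array 21 Ccl6 and Ccl9 each stood 0.96 above the median of the others.

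The eosinophil chemokines Ccl11 and Ccl24, ligands of Ccr3, were 2.50 and 2.38 above the median of the others on array 9, and Ccr3 was 0.23 above it. Ccl11 was 6.92, 9.87, 7.94, 7.47 and 6.83 on the Marfan sildenafil arrays and 6.85, 7.80, 7.17, 7.81 and 7.16 on the Marfan vehicle arrays, against 7.70, 7.18, 7.08 and 7.78 on the wild-type sildenafil arrays and between 7.01 and 7.75 (median 7.52) on the wild-type vehicle arrays. Ccl24 was 3.55, 7.28, 5.22, 4.99 and 5.00 on the Marfan sildenafil arrays and 4.90, 6.12, 4.85, 5.07 and 4.75 on the Marfan vehicle arrays, and Marfan sildenafil array 8 was the lowest of all 20. Ccl24 was 4.18, 5.08, 4.90 and 5.28 on the wild-type sildenafil arrays and between 4.22 and 5.16 (median 4.79) on the wild-type vehicle arrays. Ccl8, which in the mouse acts through Ccr8, was 5.27, 8.94, 5.45, 5.50 and 4.69 on the Marfan sildenafil arrays and 5.05, 7.03, 5.52, 5.00 and 5.80 on the Marfan vehicle arrays. It was high on arrays 9 and 21 alone, since the wild-type sildenafil values were 5.62, 5.01, 5.06 and 5.60 and wild-type vehicle lay between 4.99 and 6.02 (median 5.59). Ccr8 had its highest values on the same arrays, 5.84 and 5.51.

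Ligands that stood high on array 9 included chromosomal neighbours, with exceptions inside each cluster. In RefSeq, 35 of the 54 matched genes lay in 10 clusters of neighbours. Within a cluster each member was at most 5 places from the next in the order of protein-coding genes. Ccl2, Ccl7, Ccl11, Ccl12, Ccl8 and Ccl1 on chromosome 11 had a median distance of 2.35 on array 9, with Ccl8 at 3.46 and Ccl1 at -0.41. Ccl5, Ccl9, Ccl6, Ccl3 and Ccl4, also on chromosome 11, had a median of 1.86, with Ccl3 at 3.78 and the lymphocyte product Ccl5 at -0.73. Cxcl5, Cxcl3, Cxcl15, Cxcl1 and Cxcl2 on chromosome 5 had a median of 1.29, with the epithelial Cxcl15 at -0.06. Of the 9 genes with a kappaB match, 3 (Cxcl2, Cxcl3 and Ccl9) were more than 1 above the median of the others on array 9, and of the 31 with a window and no match, 9 were. Cxcl2 stood at 3.92, whereas Cxcl10, with 2 matches in the sequence shown above, stood at 0.39.

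The lowest of the 55 genes on array 9 were Cxcr5 at -1.04, Ccr9 at -0.79 and Ccl5 at -0.73. Ccl5, which T and NK cells make, was 8.46, 7.67, 8.36, 8.04 and 8.50 on the Marfan sildenafil arrays and 8.04, 9.20, 8.16, 7.76 and 8.20 on the Marfan vehicle arrays. It was 8.49, 8.47, 8.81 and 8.44 on the wild-type sildenafil arrays and between 8.00 and 8.63 (median 8.39) on the wild-type vehicle arrays, and it was highest on array 21. Its difference of Marfan sildenafil from wild-type sildenafil was -0.35 ± 0.21 (adjusted p = 1), or -0.21 without array 9. The NK cell markers had a median distance of -0.83 on array 9, with 5 of 7 at their lowest, and 5 of 6 B cell markers were at their lowest. The endothelial markers had a median distance of -1.15 and the cardiac muscle markers one of -2.55, while monocyte-derived macrophage markers were 1.5 and alveolar macrophage markers 1.31 above the median of the others. The part of these markers in the chemokine values of array 9 was not tested.

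On array 21, the 7 genes more than 1 above the median of the others were Ccl17 at 2.48, Ccl22 at 1.85, Ccr9 at 1.59, Ccl8 at 1.54, Ccl24 at 1.21, Ccr4 at 1.19 and Ccr8 at 1.05. Of these, Ccl22, Ccl8, Ccl24 and Ccr8 were also more than 1 above it on array 9. Ccr4 and Ccr8 are receptors of T helper 2 and regulatory T cells, and their ligands Ccl17, Ccl22 and Ccl8 were among the 7. Ccl1, a further Ccr8 ligand, stood at -0.22 on array 21. Of the 7, Ccl8, Ccl24, Ccr4, Ccr8 and Ccr9 are dim. The median of Ccr4 on the other arrays was 3.25, within the range of the background medians (2.56 to 3.28). All 4 markers of type 2 conventional dendritic cells were at their highest on this array, with a median distance of 0.99. So were 5 of 7 NK cell, 3 of 7 T cell, 3 of 5 classical monocyte and 2 of 6 type 1 conventional dendritic cell markers. Plasma cell markers had a median distance of 1.07, with 2 of 4 at their highest. None of the 6 B cell or 10 neutrophil markers was at its highest there. The part of those cells in these values was not tested.

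**Figure D4:**
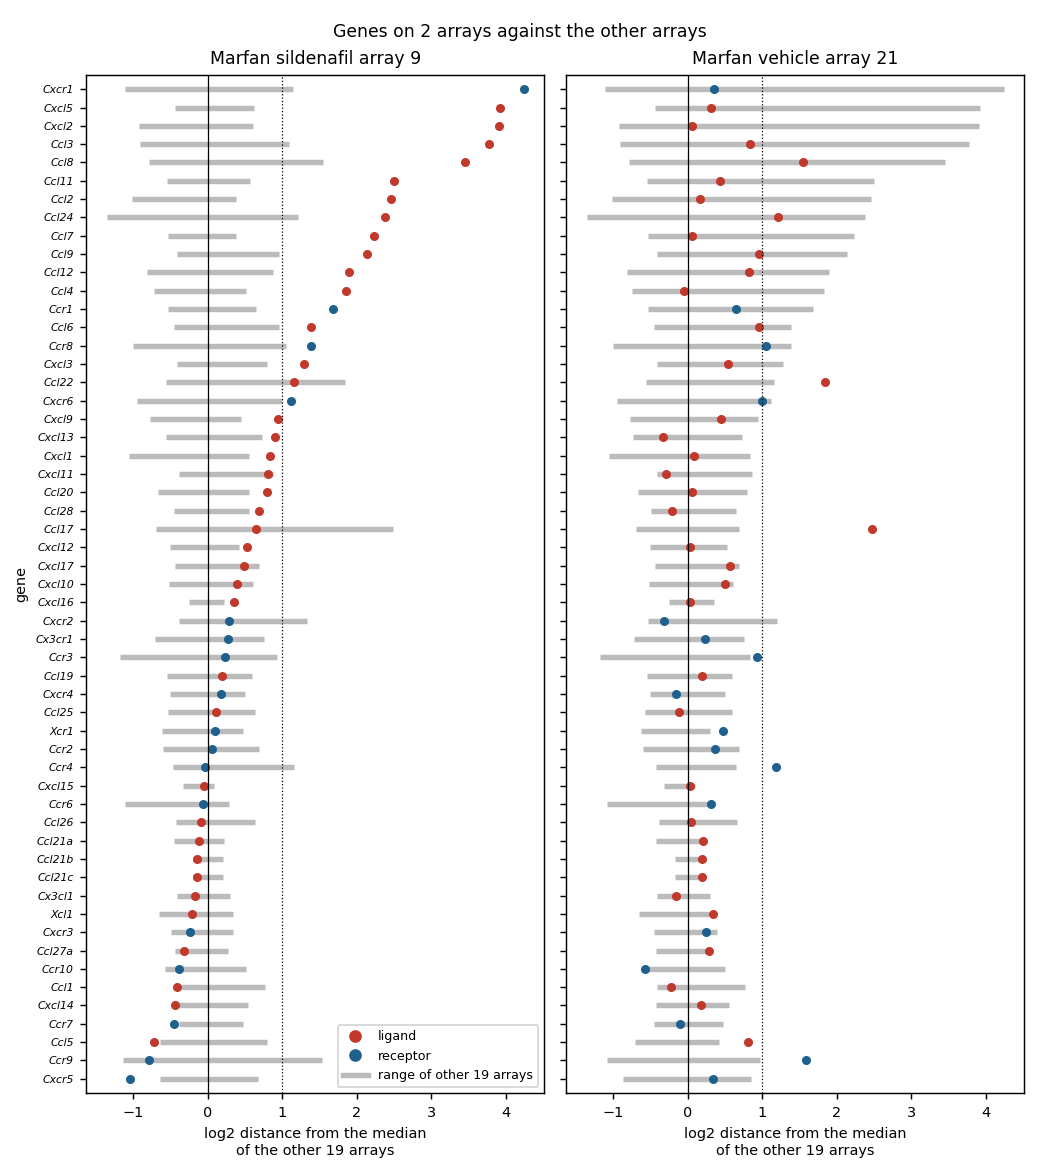
Distance of each of the 55 genes (rows, in the order of array 9) from its median on the other 19 arrays, on Marfan sildenafil array 9 (left) and Marfan vehicle array 21 (right), in log2 units, with the range of the other 19 arrays in grey and a dotted line at 1. On array 9, 18 genes lie right of that line, led by Cxcr1 at 4.24; on array 21, 7 do, led by Ccl17 at 2.48.

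Whether a gene varied with the cells that are known to carry it was measured for 15 pairs of a gene and a marker list, over the 20 arrays after removing group means. Of these, 9 passed a two-sided permutation test with 100000 resamples at an adjusted p under 0.05, and 9 without array 9. The share of all genes that would pass with the same lists was not measured. These counts therefore do not show that a gene follows its list more than other genes do. Ccl6, made by macrophages, followed the 9 alveolar macrophage markers with Pearson r = 0.923 (p = 1e-05, the smallest the resamples can give, adjusted p = 0.00015; Spearman rho = 0.795, p = 5e-05), and r was 0.834 without array 9 and 0.792 without the 2 arrays farthest from the median of the markers. Ccl5 followed the NK cell markers with r = 0.832 (p = 3e-05, adjusted p = 0.00015; rho = 0.749, p = 0.00024), and r was 0.662 without the 2 farthest arrays. Both ligands varied with the markers within groups.

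Of the 10 receptors paired with a marker list, 7 passed. Cxcr5 and the B cell markers had r = 0.781 (permutation p = 3e-05, adjusted p = 0.00015; rho = 0.8, p = 7e-05; 0.713 without the 2 farthest arrays). Ccr2 and classical monocyte markers had r = 0.779 (permutation p = 7e-05, adjusted p = 0.000262; rho = 0.759, p = 0.00016; 0.699 without the 2 farthest). Xcr1, the receptor of type 1 conventional dendritic cells for Xcl1, had r = 0.711 with their markers (permutation p = 0.00027, adjusted p = 0.00081; rho = 0.595, p = 0.00615; 0.638 without the 2 farthest). Cxcr2 and neutrophil markers had r = 0.7 (permutation p = 0.0006, adjusted p = 0.0015; rho = 0.672, p = 0.00157; 0.7 without the 2 farthest).

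Ccr6, a receptor for Ccl20 on B and T cells, had r = 0.642 with B cell markers (permutation p = 0.00262, adjusted p = 0.00561; rho = 0.711, p = 0.00073; 0.646 without the 2 farthest). Cxcr6 and T cell markers had r = 0.584 (permutation p = 0.00767, adjusted p = 0.0144; rho = 0.495, p = 0.0279; 0.471 without the 2 farthest). Ccr3 and eosinophil markers had r = 0.547 (permutation p = 0.0118, adjusted p = 0.0196; rho = 0.561, p = 0.0111; 0.59 without the 2 farthest). These dim receptors varied with other markers of the cells known to carry them, though Cxcr6 missed the threshold in the deposited values, with r = 0.439. Whether they varied with other lists as well was not tested.

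The other 6 pairs did not pass after quantile normalization. For receptors, r was 0.405 for Ccr7 and 0.217 for Cxcr3 with T cell markers (permutation p = 0.0763 and 0.36, adjusted p = 0.114 and 0.415; rho = 0.46 and 0.177, p = 0.0426 and 0.45), and 0.186 for Cx3cr1 with nonclassical monocyte markers (permutation p = 0.434, adjusted p = 0.465; rho = 0.301, p = 0.197). For ligands, r was 0.335 for Cxcl15 with alveolar type 2 markers (permutation p = 0.149, adjusted p = 0.186; rho = 0.231, p = 0.328) and 0.0244 for Ccl21a with lymphatic endothelial markers (permutation p = 0.913, adjusted p = 0.913; rho = -0.101, p = 0.672). Cxcl12 did not follow the fibroblast markers, with r = -0.336 (permutation p = 0.146, adjusted p = 0.186; rho = -0.203, p = 0.391), and 0.0621 without the 2 farthest arrays. Without the 2 farthest arrays the other 5 were 0.407, 0.225, 0.386, 0.0869 and -0.0298, in the order given. Some of these pairs depended on the normalization. By the same permutation test, Cxcl15 passed in the deposited values (r = 0.789, adjusted p = 0.000112) and with median centring (r = 0.696, adjusted p = 0.00169). Ccl21a (r = 0.6, adjusted p = 0.00649) and Cxcr3 (r = 0.539, adjusted p = 0.0188) passed in the deposited values but not with median centring. The deposited values keep differences in brightness between arrays, which genes and marker lists share. Passing in those values alone therefore does not show that a gene follows its list.

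**Figure D5:**
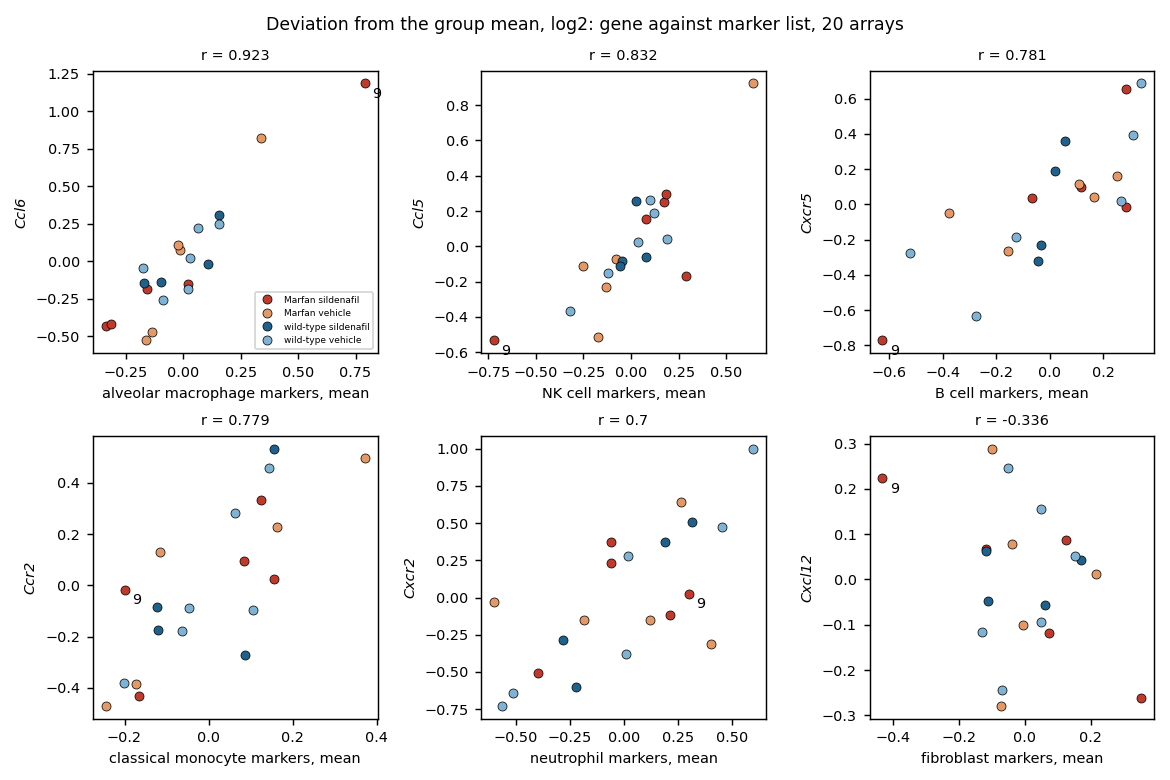
Deviation from the group mean of 6 genes (vertical axes, log2) against that of the mean of a marker list (horizontal axes, log2) on 20 arrays, coloured by group, with Marfan sildenafil array 9 marked. Points rise together for Ccl6 (r = 0.923), Ccl5 (0.832), Cxcr5 (0.781), Ccr2 (0.779) and Cxcr2 (0.7), with array 9 at the upper end for Ccl6 and the lower end for Ccl5 and Cxcr5, and do not for Cxcl12 (-0.336).

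Other genes of the chemokine system passed the adjusted threshold in no comparison. The platelet chemokines Pf4 and Ppbp, which belong to the CXC family under other names, were higher in wild-type sildenafil than in wild-type vehicle lungs by 0.63 ± 0.38 and 0.85 ± 0.44 (adjusted p = 0.652 and 0.576). Among 24 measured genes of receptor signalling, 21 were higher and 3 lower in wild-type sildenafil than in wild-type vehicle lungs, with a median difference of 0.14, beside -0.002 over all genes, and 3 of 24 had an unadjusted p under 0.05, against 9.1% of all genes. They were Elmo1, which activates Rac with Dock2, at 0.30 ± 0.11 (adjusted p = 0.43), the Src-family kinase Fgr at 0.41 ± 0.16 (adjusted p = 0.468) and the receptor-coupled G protein subunit Gnai2 at 0.18 ± 0.09 (adjusted p = 0.547). In Marfan lungs 14 of the 24 were higher under sildenafil and 10 lower, with a median of 0.04, or -0.01 without array 9. The Rac activator Prex1 had the smallest p of the list for the interaction, -0.66 ± 0.23 (adjusted p = 0.984).

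Of the 19 inducers measured, Nfkbia, the inhibitor of NF-kappaB that NF-kappaB itself induces, had a sildenafil minus vehicle difference of -0.26 ± 0.07 averaged over genotypes (adjusted p = 0.168), and Il6 was higher by 0.68 ± 0.20 (adjusted p = 0.191), or 0.49 without array 9. Between the vehicle groups Il1b, which encodes interleukin 1 beta, had a difference of -0.63 ± 0.25, Marfan minus wild-type (adjusted p = 0.789). Among the 11 genes of chemokine processing, 9 were higher in Marfan vehicle than in wild-type vehicle lungs, with a median difference of 0.15, beside -0.005 over all genes. Of the 11, 2 had an unadjusted p under 0.05 by limma, against 6.26% of all genes. They were Mmp2 and Mmp9, metalloproteinases that cleave chemokines, at 0.49 ± 0.16 and 0.43 ± 0.18 (adjusted p = 0.785 and 0.789). Between the sildenafil groups 7 of the 11 were higher in Marfan lungs, with a median of 0.16, or 0.04 without array 9. The sheddase gene Adam17 differed by 0.20 ± 0.08 between Marfan and wild-type lungs averaged over treatments (adjusted p = 0.918).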

How the data were processed

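Per the submitters' processing notes, the authors made the deposited log2 values with RMA in Affymetrix Expression Console. Per the labels, 700 pg of total RNA with an integrity number above 8.5 was labelled per sample. The deposited table holds 29129 rows, of which 6923 are controls and 22206 are transcript probe sets, and a single symbol was available for 19572 of them from GEO's array annotation. The build is not given in the sources used here. Of 24 samples, 20 have values, and 4 columns without values were not used.

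The deposited array medians spread from 5.32 to 6.45, so the log2 values were quantile-normalized. The probe set with the highest mean stood for each gene. Groups were taken from sample titles. One limma model (limma 3.58.1, R 4.3.3, trended eBayes, 1 mean per group, 16 residual degrees of freedom) gave all 7 comparisons, with Benjamini-Hochberg adjustment over 19505 genes and a threshold of 0.05. It was tested on simulated data. Signed values are the first-named group minus the second. The number of arrays limits precision. The genes and lists were chosen with earlier results of these data known. The genes chosen for description are, per comparison, the 3 with the smallest p in each direction, the 10 highest and 3 lowest on array 9, and those of the 15 relations (Ccl22, Ackr3 and array 21 were added after their values were seen). Of the genes chosen, Ccl6, Ccl7, Ccl21a, Cxcl15, Ccr2, Ccr3, Ccr6, Cxcr6 and Xcr1 are described without a list of values by array. Alternatives covered normalization, brightness, array weights, probe choice, a dim-gene filter, a sex covariate, the variance prior and each array left out. Python 3.11.15 with scipy 1.17.1 made the permutation tests and sequence searches.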

Additional observations from a re-analysis of the deposited data

Results flagged for a closer look

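The 140 groups of 4 to 6 arrays examined were 1 per gene and group, for the genes chosen by the rule above. Of these groups, 19 had a value whose gap to the nearest other value was a large share of the group's range, and chance alone flags about 5% of groups. That rate is no yardstick for array 9, since some of these genes were chosen for standing apart on it. Marfan sildenafil array 9 held 11 of them. On it Ccl2 was 7.88, Ccl28 5.47, Ccl3 10.21, Ccl6 10.90, Ccl7 6.86, Ccl8 8.94, Ccl9 10.88, Cxcl2 7.33, Cxcl5 7.38 and Cxcr1 9.13, each the highest of its group, and Cxcl15 was 12.25, the lowest. In Marfan vehicle lungs, Ccl17 was 10.38 and Ccl24 6.12 on array 21, both the highest, and Ccr6 was 4.39 and Cxcl15 11.98 on array 22, both the lowest. In the Marfan sildenafil group Cx3cr1 was lowest on array 8, at 5.22. In wild-type sildenafil lungs Ccl5 was highest on array 5, at 8.81. In wild-type vehicle lungs Ccl17 was 7.56 and Ccl27a 7.02 on array 17, both the lowest. No gene passed the adjusted threshold for the interaction, so no difference between genotypes in the sildenafil response is listed.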

How the results depend on the processing

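No gene of the 55 was called in any of the 7 comparisons under any of 29 alternatives, by limma with an adjusted p under 0.05; the nearest were Cx3cl1 in wild-type lungs with the deposited values (adjusted p = 0.0629) and averaged over genotypes with array weights (adjusted p = 0.0723). Counts of called genes over all 19505 moved. For Marfan vehicle against wild-type vehicle the count was 0, and 5 with the deposited values, 1 with array weights, 4 without arrays 9 and 21 together (chosen after seeing the data), and 0 to 2 leaving out 1 array. For sildenafil averaged over genotypes it was 0, and 3 with the deposited values, 68 with array weights, 10 among the brighter 50% of genes, 18 without arrays 9 and 21, and 0 to 74 leaving out 1 array, with 74 without Marfan sildenafil array 9, 25 without Marfan sildenafil array 10 and 1 without Marfan vehicle array 24. For Marfan averaged over treatments it was 0, and 2 with the deposited values, 5 with array weights, and 0 to 2 leaving out 1 array. The deposited values shifted the median of all genes by 0.25 between the vehicle groups and by 0.28 between the wild-type groups. There the sign turned for Cxcr4 (0.0183) and Ccr7 (0.0435) between the vehicle groups, both still below the shift of 0.25. It also turned for Ccl27a in wild-type lungs (0.128, still below the shift of 0.28) and averaged over genotypes (0.0555), and for r of Cxcl12 with fibroblast markers (0.446). The r of Ccl21a was -0.138 without array 9. The cause was not tested. Relations that passed numbered 9, 10 with median centring, 9 without array 9 and 11 with the deposited values, which keep the brightness of each array. No paired analysis was possible because the groups share no replicate numbers. Dim genes may lie within background, which limits Cxcl2, Cxcl5, Ccl2 and Cxcr3.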
